A study of Mus musculus with 12 samples.

Results

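The genes described here are the 38 that carry fatty acids into muscle, release them from stored triglyceride and burn them in mitochondria, measured by RNA sequencing in the tibialis anterior of 6 control and 6 Smyd1 CKO (conditional knockout) mice. They were chosen by gene symbol from the known steps of the pathway and not by a rule on their values, though earlier results of these data were known. All 38 were found among the 23923 genes of the files, and all 38 passed the filter on low values that left 12695 genes for testing. Smyd1 encodes a lysine methyltransferase of striated muscle, and the tibialis anterior is a fast-twitch muscle of the lower hindlimb. Every mouse was 6 weeks old and of mixed C57BL6/J;129S1/SvImJ background. Controls had the genotype Myf6 cre/+; Smyd1 flox/+ and CKOs had Myf6 cre/+; Smyd1 flox/-, so that both groups carried the Cre allele and a floxed Smyd1 allele, and the groups differed in the other Smyd1 allele, wild type in controls and null in CKOs. By the study's methods a Rosa26 YFP reporter allele was bred in from the same parent as the floxed allele. The Cre sits in the Myf6 gene and acts in skeletal myocytes around birth, so cells of the muscle that never made Myf6 keep their floxed allele.

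Long-chain fatty acids reach a myofiber after lipoprotein lipase frees them in the capillaries, and cross its membrane with the help of CD36 and fatty acid transport proteins. Acyl-CoA synthetases activate them, and the carnitine shuttle brings them into the mitochondrion under the control of malonyl-CoA. In each turn of the beta-oxidation spiral a dehydrogenase, a hydratase, a second dehydrogenase and a thiolase remove an acetyl-CoA, and electron transfer flavoprotein hands the electrons of the opening step to the respiratory chain. Many of these genes are targets of the PPAR nuclear receptors, which respond to fatty acids.

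Values are FPKM, a fragment count divided by transcript length and by the library's mapped reads, with 1 library per mouse. Levels of different genes are thus given per length. Reads mapping to several places had been discarded and the annotation is not given, so comparisons between genes are approximate. Differences are log2 fold changes of FPKM + 0.1, CKO minus control, with the standard error (SE), from limma fitted across all 12695 genes. On this scale the median tested gene was 0.18 higher in the CKOs as deposited and 0.01 higher after median-ratio scaling, which sets the typical gene to the same level in each mouse. Both scalings are therefore given for each gene and list that the results turn on. Depth in reads is unknown. Steps between low values placed the relative depth between 0.979 and 1.77 times that of control 1, and log2 values of mice in the same group correlated at 0.943 to 0.972 across genes. Smyd1 itself read 32.9 to 47.1 FPKM in controls and 27.8 to 39.9 FPKM in CKOs. Its log2 fold change was -0.128 (adjusted P = 0.545, limma) as deposited and -0.315 (unadjusted P = 0.00182, adjusted P = 0.0801) after scaling, where the groups still overlapped. Which exons are floxed is not given in the sources used here, and a whole-gene value can take in exons outside them, so it does not check the labels. The tissue's own markers were abundant apart from Ttn, with muscle actin (Acta1) at 4019 to 4982 FPKM in controls and 3226 to 4241 FPKM in CKOs. Ttn read 640 to 871 FPKM in controls 1, 2 and 4 and CKO 2 and was listed at 0 in all other mice. Of the 5 fiber markers tested, 2 had a positive log2 fold change and 3 a negative one as deposited. After scaling it was 1 and 4. Acta1 was at -0.33 and, after scaling, -0.52, and Des at 0.49 and 0.30. The summed level of 9 slow fiber genes ran from 33.5 to 66.6 FPKM in controls and from 48.0 to 354 FPKM in CKOs, with CKO 6, CKO 1 and CKO 3 the highest.

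Across the pathway the change was small. With FPKM as deposited 34 of 38 genes had a positive log2 fold change and 8 passed an unadjusted P of 0.05, all of them higher in CKOs. They were Slc27a1, Lipe, Acsl5, Acads, Echs1, Hadha, Eci2 and Acot2. These 8 are 21.1% of the members, beside 18.1% of all tested genes that were higher by the same rule. None was lower, beside 1.76% of all genes. After adjustment over all genes 0 members passed, with a smallest adjusted P of 0.125 (limma, Benjamini-Hochberg), beside 2.29% of all genes. The members' median log2 fold change was 0.17, against 0.18 over all tested genes. No member had all 6 CKO values above, or all 6 below, the control values, where 2.23% of all genes lay entirely above and 0.189% entirely below.

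After median-ratio scaling the members split evenly, 19 positive and 19 negative, with a median of -0.01 against 0.01 over all genes. Acsl5 was then the only member higher at the unadjusted threshold, beside 6.66% of all genes, and Acsl3 the only member lower, beside 7.41%. None passed the adjusted threshold, beside 1.47% of all genes. Single mice moved these counts. As deposited 5 members (13.2%) were higher without control 6, without CKO 1 or without CKO 3, beside 14.6%, 13.7% and 15.4% of all genes in these fits. Without CKO 6, 14 members (36.8%) were higher, beside 15.4% of all genes, and without control 1, 11 (28.9%), beside 27.0%. After scaling it was 5 without CKO 6, where 5.81% of all genes were higher, 2 without control 6, and 0 without control 2, 3 or 5 or CKO 1, 2 or 3. The number lower after scaling was 0 without control 4, control 5 or CKO 3 and 2 without control 1, control 3, CKO 4 or CKO 5. Apart from the fit without CKO 6, the shares of all genes in these scaled fits were not counted.

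**Figure D1:**
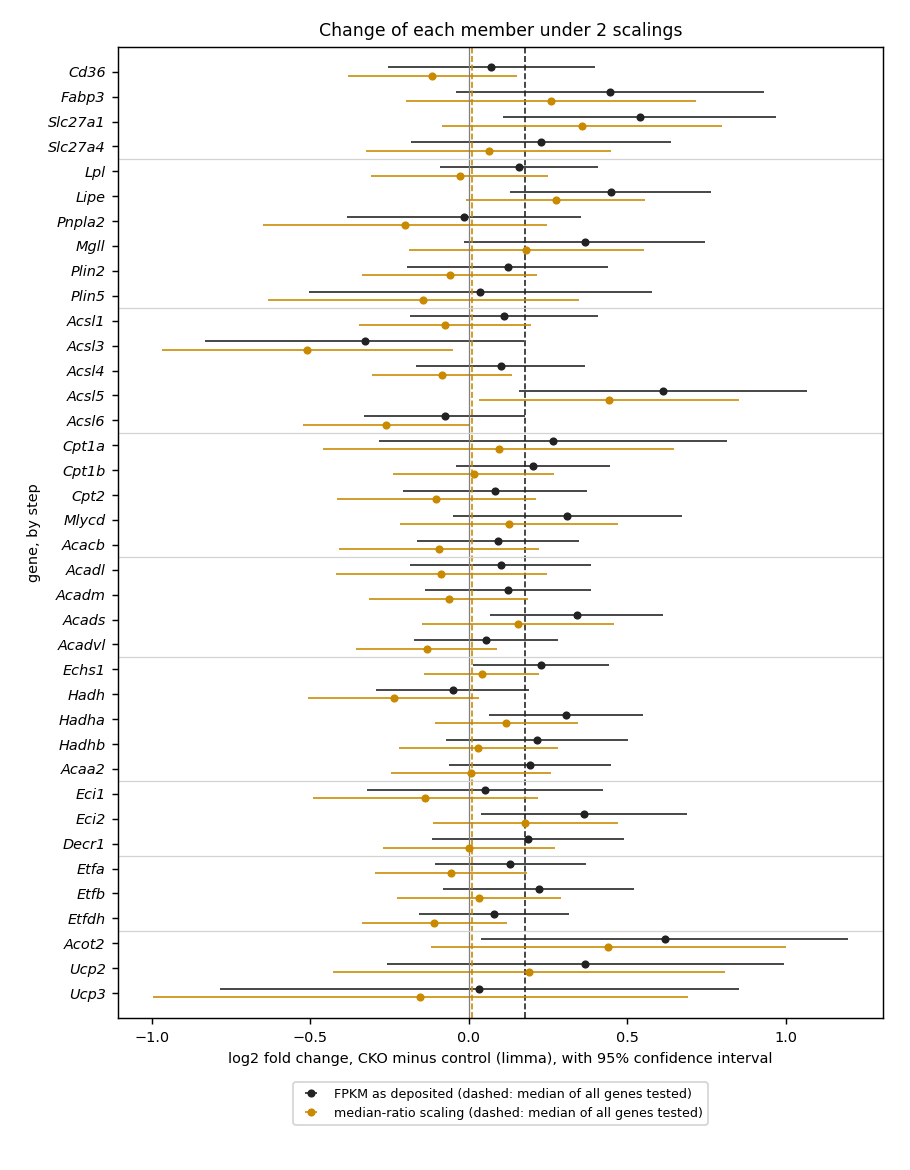
Log2 fold change of each of the 38 genes, CKO minus control, with its 95% confidence interval, in order of pathway step. Black points use FPKM as deposited and amber points use median-ratio scaling, and dashed lines mark the median of all tested genes, at 0.18 and 0.01. Most black points lie right of 0 and near the black dashed line, and 19 of the 38 amber points lie left of 0.

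The genes of uptake and transport ranged widely in level. Cd36, the membrane fatty acid translocase, was the most abundant member in controls at 68.4 ± 15.4 FPKM (SD, n = 6), against 71.3 ± 12.5 FPKM in CKOs. Its values ran from 52.6 through a median of 63.9 to 89.8 FPKM in controls and from 53.7 through 73.5 to 90.1 FPKM in CKOs. The groups covered almost the same range, and the log2 fold change was 0.07 (SE 0.15, adjusted P = 0.82, limma) as deposited and -0.12 after scaling.

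Slc27a1 encodes FATP1, the fatty acid transport protein of muscle. It read from 1.68 through a median of 2.41 to 3.10 FPKM in controls and from 1.96 through 3.66 to 4.91 FPKM in CKOs. The groups overlapped through a single CKO mouse, since 5 of the 6 CKO values lay above every control and CKO 6 lay among the lower controls. The log2 fold change was 0.54 (SE 0.20, unadjusted P = 0.0177, adjusted P = 0.160, limma), a 1.45-fold difference, and 0.36 (adjusted P = 0.478) after scaling. It stayed past the unadjusted threshold as deposited whichever of the 12 mice was left out. Fabp3, the cytosolic fatty acid binding protein of muscle and heart, read 12.6 to 22.7 FPKM in controls and 13.2 to 39.2 FPKM in CKOs, with a log2 fold change of 0.44 (adjusted P = 0.29, limma) and 0.26 (adjusted P = 0.66) after scaling. Here CKO 1, CKO 3 and CKO 2 lay above all controls and CKO 6 near the bottom. Slc27a4, encoding FATP4, was the lowest member of all at 0.735 ± 0.15 FPKM in controls and 0.896 ± 0.285 FPKM in CKOs.

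In the lipolysis group only Lipe passed the unadjusted threshold. It encodes hormone-sensitive lipase, which splits diacylglycerol. Control values ran from 0.829 through a median of 1.18 to 1.36 FPKM and CKO values from 1.35 through 1.51 to 1.91 FPKM. The groups met at their edges, with 4 CKOs above every control and the other two just below the highest control. Its log2 fold change was 0.45 (SE 0.15, unadjusted P = 0.00881, adjusted P = 0.125, limma), the smallest P of any member, and 0.27 (adjusted P = 0.374) after scaling.

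Adipocytes also express Lipe, and markers of that cell type were measured beside it. Of 7 adipocyte markers 5 could be tested, and Adipoq, Retn and Cfd were higher in CKOs at the unadjusted threshold on both scales. These 3 are 60% of those tested, beside 18.1% of all genes as deposited and 6.66% after scaling. Retn reached 0.1 FPKM in every CKO but only in controls 1 and 4, so it was tested through the CKOs. Fabp4, by far the most abundant of the list, went the other way without passing, at -0.20 as deposited and -0.39 after scaling. The sum of the whole list was 94.7 to 308 FPKM in controls and 96.2 to 211 FPKM in CKOs. The sum of the list without Fabp4, which capillary endothelium also makes, was 1 to 3.03 FPKM in controls and 2.62 to 7.31 FPKM in CKOs. The defining markers Plin1, Lep and Retn were each listed at 0 in at least 1 mouse. Whether adipocyte RNA had a part in the Lipe difference was not tested. In bulk muscle, more cells of a type and more RNA per cell cannot be told apart.

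The other lipases and droplet proteins did not pass. Lpl, the lipase that works in the capillary, was the most abundant of this group at 40.2 ± 6.66 FPKM in controls and 44.6 ± 4.82 FPKM in CKOs. Pnpla2 encodes adipose triglyceride lipase, which takes the initial fatty acid from triglyceride, and read 10.9 ± 2.57 FPKM in controls and 10.7 ± 2.31 FPKM in CKOs, a log2 fold change of -0.02 with a 95% confidence interval of -0.38 to 0.35, and -0.20 after scaling. Mgll, encoding monoglyceride lipase, the last step, had a log2 fold change of 0.36 (adjusted P = 0.27, limma), or 0.18 (adjusted P = 0.717) after scaling, and read 2.70 to 5.23 FPKM in controls against 3.71 to 7.39 FPKM in CKOs. The droplet coat genes Plin2 and Plin5 had log2 fold changes of 0.12 and 0.04 as deposited and -0.06 and -0.14 after scaling, and their highest CKO values, 5.52 and 4.44 FPKM, were both in CKO 1.

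**Figure D2:**
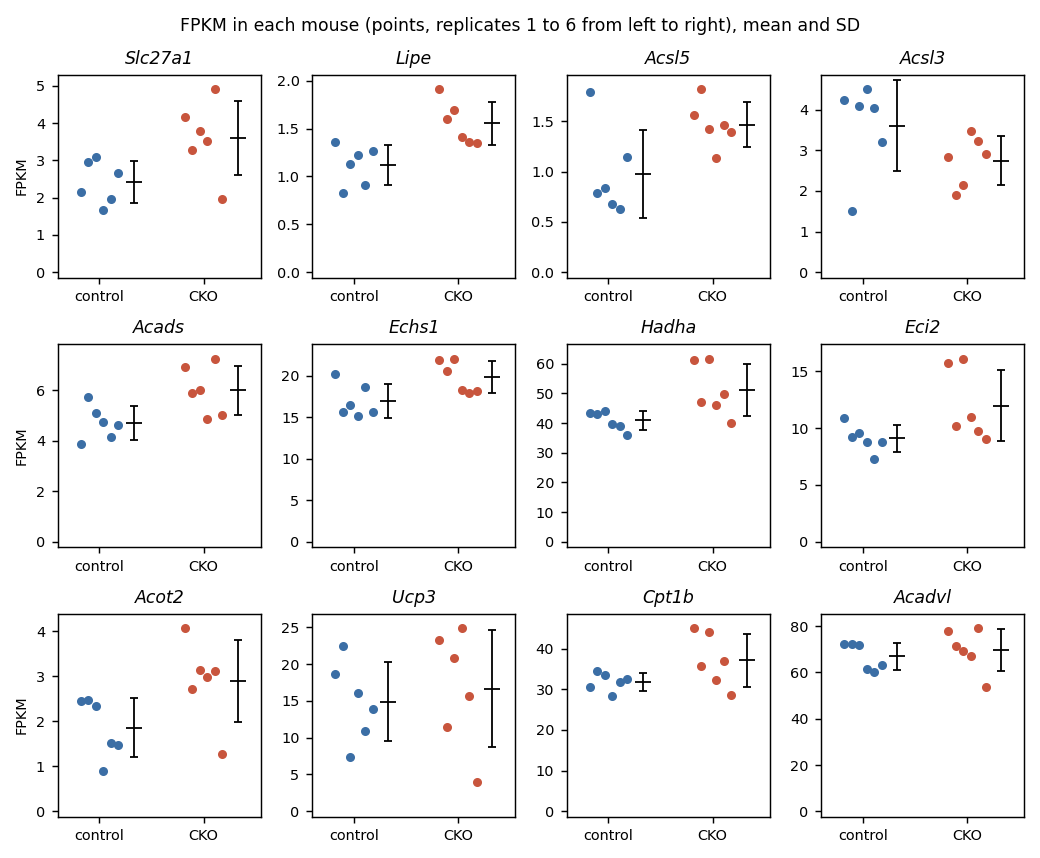
FPKM as deposited for 12 members in each mouse, with the mean and SD beside the points. Controls are blue and CKOs red, and replicates 1 to 6 run from left to right. CKO 6, the rightmost red point, is the lowest or nearly the lowest CKO for Slc27a1, Hadha, Acot2 and Ucp3, and control 1 stands above the other controls for Acsl5.

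Acyl-CoA synthetases attach coenzyme A to the fatty acid, and the 5 members differed in level and in direction. Acsl1, the main muscle form, read 32.2 ± 5.26 FPKM in controls and 35.0 ± 7 FPKM in CKOs, while the other 4 reached at most 8.63 FPKM in any mouse. Acsl5, an endoplasmic reticulum and mitochondrial form, was higher in CKOs under both scalings. Its control values ran from 0.623 through a median of 0.811 to 1.79 FPKM and its CKO values from 1.14 through 1.44 to 1.82 FPKM. Control 1 was the second highest of all 12 mice, and the other 5 controls reached no more than 1.14 FPKM, about the level of the lowest CKO. The log2 fold change was 0.61 (SE 0.21, unadjusted P = 0.0116, adjusted P = 0.138, limma) as deposited and 0.44 (SE 0.19, unadjusted P = 0.036, adjusted P = 0.315) after scaling. Without control 1 it was 0.79 and passed the adjusted threshold as deposited (adjusted P = 0.0123, limma). In that fit 1067 of all tested genes were higher at the adjusted threshold, against 257 with all 12 mice. After scaling 0 members passed it without control 1. Control 1 also had the highest summed levels of macrophage markers, 21.5 FPKM against 5.07 to 8.35 FPKM in the other controls, and of fibroblast and tendon markers, 690 against 181 to 230 FPKM. Their part in its Acsl5 level was not tested.

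Acsl3, a synthetase of the endoplasmic reticulum and lipid droplets, went the other way. It read from 1.5 through a median of 4.08 to 4.51 FPKM in controls and from 1.91 through 2.87 to 3.49 FPKM in CKOs. Control 2 was the lowest of all 12 mice, and 4 of the other controls were above every CKO. The log2 fold change was -0.33 (SE 0.24, adjusted P = 0.442) as deposited and -0.51 (SE 0.22, unadjusted P = 0.0322, adjusted P = 0.299, limma) after scaling. Without control 2 it was -0.55 as deposited and passed the unadjusted threshold. Acsl6 read 5.04 ± 0.305 FPKM in controls and 4.83 ± 0.808 FPKM in CKOs, and Acsl4 6.63 ± 0.864 and 7.14 ± 1.18 FPKM.

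The bases upstream of Acsl5 and Acsl3 are shown because these are the only members past a threshold after scaling, in opposite directions. Sequences are from RefSeq on GRCm38.p6 and not on the submitters' build, mm9, and give the 250 bases before the annotated start on the plus strand, at chr19:55253119-55253368 for Acsl5 and chr1:78657575-78657824 for Acsl3. Capitals mark GC boxes (GGGCGG or its complement) and E-boxes (CANCTG or its complement). The Acsl5 stretch holds 0 GC boxes and 1 E-box at 52.8% GC, and the Acsl3 stretch 5 GC boxes and 1 E-box at 75.6% GC. In GENCODE the Acsl5 gene begins further upstream, at base 55251938 of chromosome 19, so its stretch lies within the gene for the longer transcripts.
Acsl5: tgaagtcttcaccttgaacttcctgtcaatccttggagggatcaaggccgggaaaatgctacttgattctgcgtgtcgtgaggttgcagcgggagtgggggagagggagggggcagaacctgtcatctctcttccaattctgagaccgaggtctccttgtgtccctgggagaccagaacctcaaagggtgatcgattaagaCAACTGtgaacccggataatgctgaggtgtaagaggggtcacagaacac
Acsl3: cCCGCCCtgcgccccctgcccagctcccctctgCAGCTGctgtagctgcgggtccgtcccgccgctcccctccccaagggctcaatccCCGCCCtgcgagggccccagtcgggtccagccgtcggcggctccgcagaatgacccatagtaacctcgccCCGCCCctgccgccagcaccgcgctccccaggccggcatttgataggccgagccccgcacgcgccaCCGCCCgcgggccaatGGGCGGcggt

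Promoter windows of 300 bases, 250 before and 50 after the start, were held for 34 of the 38 members. Members were counted by gene, and the background by window over all genes, whether or not the muscle expressed them. The shares that follow are therefore not like for like, and their difference was not tested. On either strand a GC box was present in 25 of the 34 (73.5%), against 35.7% of 32851 windows of all genes, and an E-box in 21 (61.8%), against 51.4%. The nuclear receptor element AGGTCA was present in 10 (29.4%), against 16.3%, those of Acacb, Acadm, Acadvl, Acsl6, Cd36, Cpt1a, Echs1, Plin2, Plin5 and Ucp3. Of these 10 genes only Echs1 passed the unadjusted threshold as deposited. A direct repeat of AGGTCA with 1 base between, the form PPAR receptors bind, was present in 0 of 34 members and 0.0396% of all windows, and the MEF2-type element CTANNNNTAG in 0 of 34 and 3.69%. No match says only that these letters are not in this window.

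The carnitine shuttle and its control by malonyl-CoA held no member past a threshold on either scale. Cpt1b is the muscle form of carnitine palmitoyltransferase 1 and the entry point of the pathway. As deposited it varied little in controls at 31.9 ± 2.21 FPKM, a coefficient of variation of 6.94%, against 37.1 ± 6.46 FPKM and 17.4% in CKOs. It ran from 28.3 to 34.6 FPKM in controls and from 28.6 to 45.0 FPKM in CKOs, with CKO 1 and CKO 3 at 45.0 and 44.1 FPKM and CKO 6 at the bottom. After scaling Cpt1b read 33.8 ± 4.56 FPKM in controls and 34.3 ± 5.40 FPKM in CKOs, so the spreads of the groups were then much closer. Its log2 fold change was 0.20 (SE 0.11, adjusted P = 0.335, limma) and 0.02 (adjusted P = 0.97) after scaling. Cpt1a, the liver form, was low at 0.897 ± 0.257 FPKM in controls and 1.15 ± 0.519 FPKM in CKOs. Cpt2, on the inner membrane, read 6.39 ± 0.575 and 6.88 ± 1.43 FPKM. Acacb, the carboxylase that makes malonyl-CoA at the mitochondrion, read 9.06 ± 1.43 and 9.60 ± 1.07 FPKM. Mlycd, which degrades malonyl-CoA, read 5.18 ± 0.703 and 6.62 ± 1.85 FPKM, a log2 fold change of 0.31 (adjusted P = 0.317, limma) and 0.13 (adjusted P = 0.8) after scaling.

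Of the 4 acyl-CoA dehydrogenases, which share the opening step by chain length, the shortest-chain enzyme alone passed. Acads, the least abundant of the 4, read from 3.86 through a median of 4.68 to 5.73 FPKM in controls and from 4.86 through 5.96 to 7.24 FPKM in CKOs. Of the CKOs 4 lay above every control, and CKO 4 and CKO 6 lay within the control range. Its log2 fold change was 0.34 (SE 0.13, unadjusted P = 0.0177, adjusted P = 0.160, limma), and 0.16 (adjusted P = 0.697) after scaling. The very-long-chain enzyme Acadvl was the second most abundant member in controls. It read from 60.3 through 67.5 to 72.4 FPKM in controls and from 53.6 through 70.5 to 79.1 FPKM in CKOs, and the CKOs spread to both sides of the control range. Its log2 fold change was 0.05 (95% confidence interval -0.17 to 0.28, adjusted P = 0.802, limma) and -0.13 after scaling. Acadm read 52.9 ± 6.39 and 58.0 ± 9.54 FPKM in controls and CKOs, and Acadl 38.8 ± 6.91 and 41.6 ± 6.90 FPKM.

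Among the later steps Hadha and Echs1 passed the unadjusted threshold. Hadha encodes the alpha subunit of the mitochondrial trifunctional protein, which carries the hydratase and the second dehydrogenase for long chains. It read from 36.0 through a median of 41.5 to 44.0 FPKM in controls and from 40.0 through 48.5 to 61.7 FPKM in CKOs. Again 5 CKOs lay above every control, with CKO 1 and CKO 3 well above the rest, and CKO 6 within the control range. The log2 fold change was 0.30 (SE 0.11, unadjusted P = 0.0173, adjusted P = 0.160, limma), and 0.12 (adjusted P = 0.692) after scaling. Echs1, the hydratase for short chains, read from 15.2 through 16.0 to 20.2 FPKM in controls and from 17.9 through 19.4 to 22.1 FPKM in CKOs, a log2 fold change of 0.23 (SE 0.10, unadjusted P = 0.0395, adjusted P = 0.226, limma) and 0.04 (adjusted P = 0.892) after scaling. Control 1 was the highest control here, and 3 CKOs were above it. With 1 mouse left out in turn Echs1 passed in 5 of 12 fits. Hadh, the dehydrogenase for shorter chains, had a log2 fold change of -0.05 and, after scaling, -0.24 (adjusted P = 0.429, limma). Acaa2, the thiolase, read 32.4 ± 3.45 and 37.4 ± 6.00 FPKM.

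Hadhb, the beta subunit of the trifunctional protein with its thiolase, is made in equal number with the alpha subunit in the assembled complex. Its FPKM was 8.28 ± 1.39 in controls and 9.64 ± 1.62 in CKOs, 0.203 and 0.191 times that of Hadha, an approximate comparison between genes. The genes lie head to head on mouse chromosome 5 (GRCm38), Hadha on the minus strand from 30118304 to 30155162 and Hadhb on the plus strand from 30155248 to 30184593. Their promoter windows share 228 bases, and the 85 exon-free bases between them, at chr5:30155163-30155247, are shown on the plus strand with GC boxes in capitals, as the stretch both genes have upstream.
Hadhb-Hadha: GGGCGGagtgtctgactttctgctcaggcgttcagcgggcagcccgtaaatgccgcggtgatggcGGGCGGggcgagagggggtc
The log2 ratio of Hadhb to Hadha was -2.30 ± 0.22 in controls and -2.39 ± 0.13 in CKOs, a difference smaller than the SD of either group (exact permutation P = 0.416).

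The auxiliary enzymes prepare unsaturated fatty acids for the spiral. Eci2, an enoyl-CoA isomerase of mitochondria and peroxisomes, read from 7.30 through a median of 9.02 to 10.9 FPKM in controls and from 9.06 through 10.6 to 16.1 FPKM in CKOs. CKO 1 and CKO 3 stood apart, at 15.7 and 16.1 FPKM, and the other 4 CKOs reached no more than 11.0 FPKM. The log2 fold change was 0.36 (SE 0.15, unadjusted P = 0.0303, adjusted P = 0.201, limma), and 0.18 (adjusted P = 0.62) after scaling. It lost the unadjusted threshold without CKO 1, without CKO 3 and without control 5 or control 6. Eci1, the mitochondrial isomerase, read 15.4 ± 2.69 and 16.2 ± 4.08 FPKM, and Decr1, the dienoyl-CoA reductase, 13.7 ± 1.47 and 15.9 ± 3.66 FPKM.

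Electron transfer genes did not pass. Etfb, the beta subunit of electron transfer flavoprotein, was the most abundant member in CKOs. It read from 49.2 through a median of 61.9 to 82.8 FPKM in controls and from 56.4 through 76.7 to 87.0 FPKM in CKOs. Control 1 was the highest control by a wide margin, and CKO 6 and CKO 4 were the lowest CKOs. The log2 fold change was 0.22 (SE 0.14, adjusted P = 0.389, limma) and 0.03 (adjusted P = 0.939) after scaling. Etfa read 18.5 ± 1.24 and 20.5 ± 3.66 FPKM, less than its partner subunit per length, and Etfdh, the flavoprotein's dehydrogenase, 34.8 ± 3.86 and 36.8 ± 5.29 FPKM.

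Acot2 encodes a mitochondrial thioesterase that frees fatty acids from acyl-CoA. It had the largest log2 fold change of the 38 as deposited, 0.62 (SE 0.27, unadjusted P = 0.0379, adjusted P = 0.222, limma), and 0.44 (adjusted P = 0.497) after scaling. Control values ran from 0.893 through a median of 1.93 to 2.48 FPKM and CKO values from 1.28 through 3.06 to 4.07 FPKM. CKO 6, at 1.28 FPKM, was below 5 of the 6 controls, and the other 5 CKOs were above all of them. Without CKO 6 the log2 fold change was 0.82, and without CKO 1 it was 0.51 and lost the unadjusted threshold. It passed in 4 of the 12 fits with 1 mouse left out. Acot2 and its near copy Acot1 are neighbors on mouse chromosome 12, and reads that mapped to several places had been discarded, so the level of either is uncertain.

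The uncoupling proteins varied widely between mice. Ucp3, the form of skeletal muscle, read from 7.40 through a median of 15.0 to 22.4 FPKM in controls and from 3.97 through 18.3 to 24.9 FPKM in CKOs, with a coefficient of variation of 36.2% and 47.8%. CKO 6 was the lowest of the 12 mice and CKO 4 the highest. Its log2 fold change of 0.03 had a 95% confidence interval of -0.78 to 0.85, and it was -0.15 after scaling. Ucp2, the widely expressed form, which macrophages make in quantity, was highest in control 1, at 3.52 FPKM, and lowest in control 5, at 0.831 FPKM. It ran from 1.19 to 3.15 FPKM in CKOs. The log2 fold change was 0.37 (adjusted P = 0.488, limma) as deposited and 0.19 (adjusted P = 0.838) after scaling. The part of macrophages in its level was not tested.

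The ratio of a pair of members within a mouse, taken from FPKM + 0.1, is nearly free of sample scaling, and 6 ratios were tested. Cpt1b exceeded Cpt1a 33.0-fold in controls and 31.6-fold in CKOs. Ucp3 exceeded Ucp2 by 2.88 ± 0.49 log2 units in controls and 2.55 ± 1.23 in CKOs, where CKO 6 was far the lowest at 0.40. The difference of -0.33 (exact permutation P = 0.591) turned to 0.10 without CKO 6. The smallest P values were those of Acacb to Mlycd, the maker against the degrader of malonyl-CoA, at -0.22 (exact permutation P = 0.258), and Acsl6 to Acsl1 at -0.19 (exact permutation P = 0.279). Plin5 to Plin2 differed by -0.09 and Cpt1b to Cpt1a by -0.06, and both turned positive without single mice (control 3 or CKO 6 for the former, CKO 1, control 3 or control 5 for the latter). No ratio passed, with every adjusted P at 0.801 (two-sided exact permutation over all assignments of 6 mice to each group, adjusted over the 6). For Acacb to Mlycd control 1 was the lowest of all 12 mice at 0.09 and 5 of 6 CKOs were below the control median. Without control 1 the difference was -0.36 and passed the unadjusted threshold (exact permutation P = 0.0476).

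**Figure D3:**
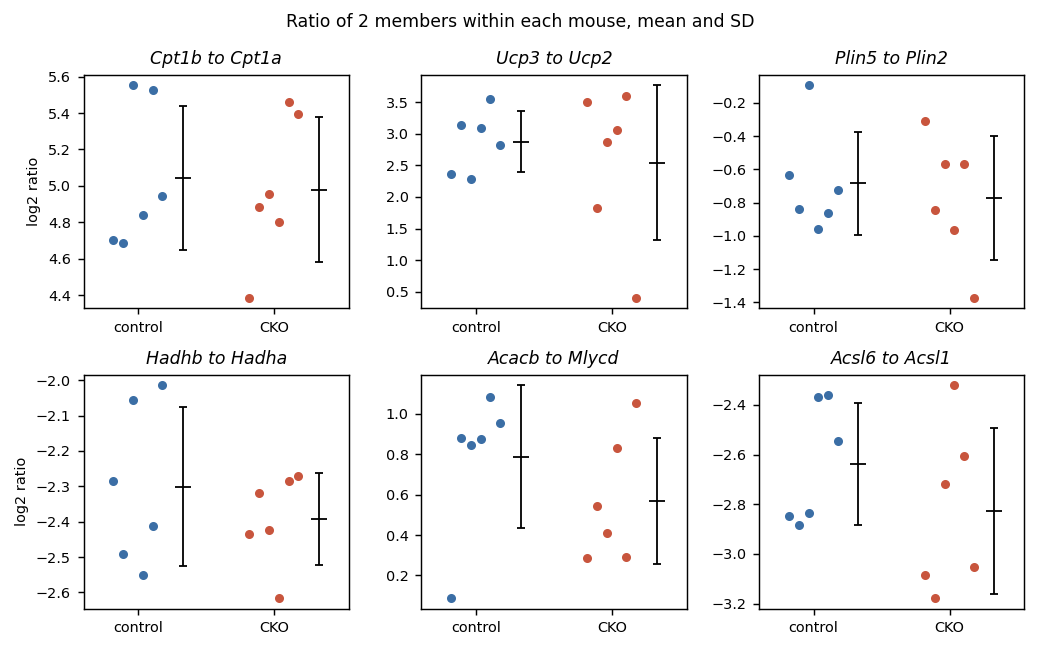
Log2 ratio of paired members within each mouse, controls blue and CKOs red, replicates 1 to 6 from left to right, with mean and SD. The groups overlap for every pair, and CKO 6 is the lowest point for Ucp3 to Ucp2, at 0.40.

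Within the CKO group the members moved by mouse. CKO 6 was the lowest of the 6 CKOs for 26 of the 38 genes, while it was the lowest for 13.4% of all tested genes. After scaling the count was 28 of 38, beside 16.1%. CKO 6 was the highest for none. It was lowest for all 6 lipolysis and droplet genes, for all 3 auxiliary enzymes, for 4 of 5 shuttle genes and for only 1 of 5 synthetases. CKO 1 was the highest for 18 of 38 as deposited, beside 20.1%, and 12 after scaling, beside 11.9%. The 3 mice with the highest slow fiber sums did not go together. CKO 6 had the highest sum, 354 FPKM, and was the lowest CKO for most members, while CKO 1, at 177 FPKM, and CKO 3, at 114 FPKM, were the highest for 18 and 7. In controls, control 1 was highest for 17 members as deposited, beside 44.7% of all genes, and control 2 for 26 after scaling, beside 15.6%. These counts were noticed in the data, and the members of a mouse are not independent.

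**Figure D4:**
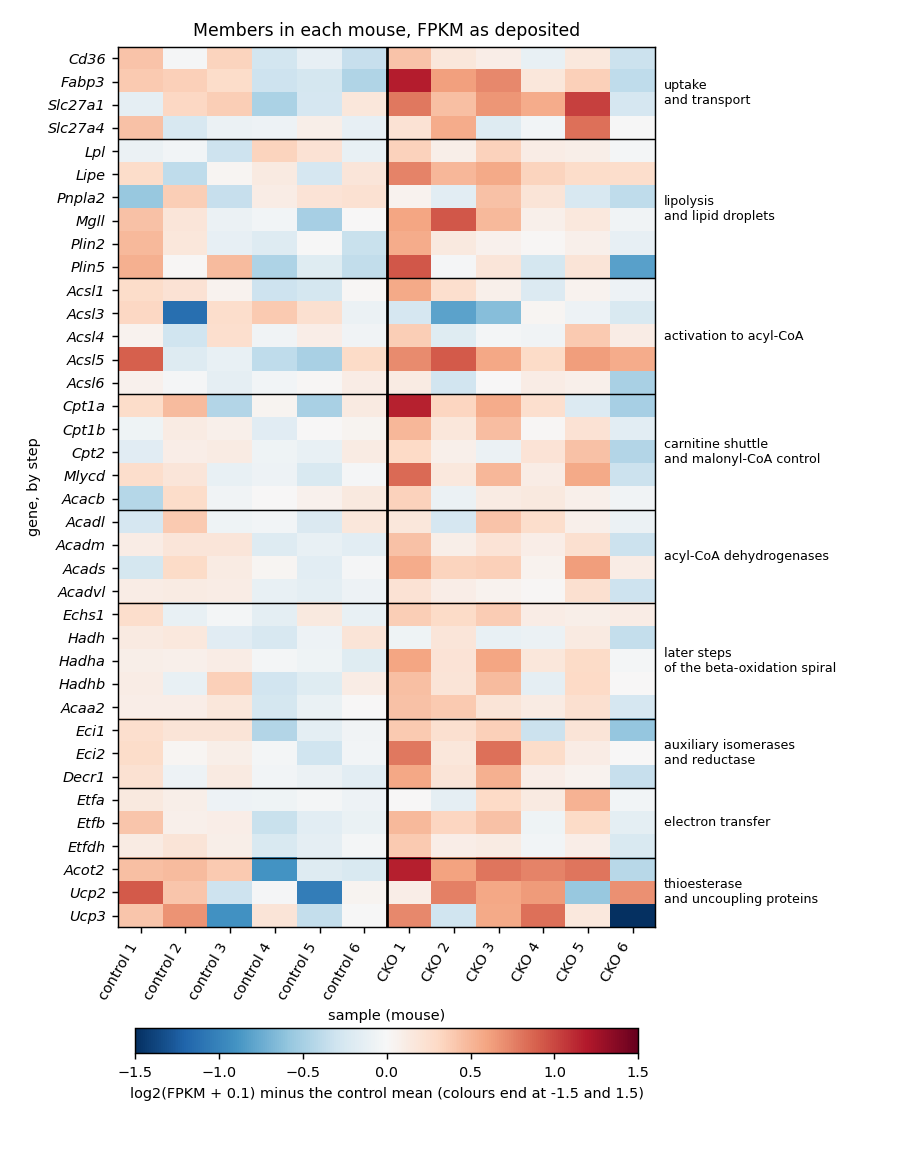
Each of the 38 genes, in rows by step, in each of the 12 mice, as log2(FPKM + 0.1) minus the control mean of that gene. Red is above and blue below the control mean. CKO 1 is red in most rows, CKO 6 is the lowest CKO in 26 rows, and Acsl5 is red in all 6 CKOs.

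Genes beside the pathway were read from lists fixed by function, with up to 3 named from each by the smallest P. The regulators and PPAR targets had 3 of 22 higher (13.6%) and 1 lower (4.5%) at the unadjusted threshold, with a median log2 fold change of 0.15 (0.18 over all genes). After scaling 2 were higher (9.09%) and 4 lower (18.2%). Over all tested genes 18.1% were higher and 1.76% lower as deposited, and 6.66% and 7.41% after scaling. Prkaa1, the alpha 1 catalytic subunit of AMP-activated kinase, rose in CKOs. It read 1.96 to 2.72 FPKM in controls and 2.94 to 4.31 FPKM in CKOs, with no overlap as deposited. The difference was 0.58 on the log2 scale (adjusted P = 0.0303, limma) and 0.40 (adjusted P = 0.0815) after scaling, where the groups overlapped. Other subunits of the kinase, named after their values were seen, did not all rise. Prkaa2, the alpha 2 subunit, was more abundant at 22.4 ± 2.46 FPKM in controls and 21.2 ± 1.47 FPKM in CKOs. Its log2 fold change was -0.07, and -0.26 (unadjusted P = 0.0287, limma) after scaling. Prkab2 was at -0.16 and -0.35 (unadjusted P = 0.0313), and Prkag3 at 0.45 (unadjusted P = 0.0118) and 0.26. Rxrg, a retinoid X receptor and partner of the PPARs, read 4.81 to 8.62 FPKM in controls and 2.79 to 6.09 FPKM in CKOs, a log2 fold change of -0.65 (adjusted P = 0.0919) and -0.84 (adjusted P = 0.0224) after scaling. Acot1, the cytosolic near copy of Acot2, was listed at 0 in controls 1, 2 and 3 and read 0.0547, 0.0934 and 0.116 FPKM in controls 4 to 6, against 0.437, 0.110, 0.594, 0.154, 0.302 and 0.302 FPKM in CKOs 1 to 6. It passed the adjusted threshold on both scales (adjusted P = 0.0295 and 0.0497, limma), at a very low level. Every CKO but, among controls, only control 6 reached the 0.1 FPKM of the filter. Acot1 was thus tested only through the group where it was high, and its P values are not counted as support for a difference. The PPAR targets Pdk4, which restrains glucose oxidation, and Angptl4, an inhibitor of lipoprotein lipase, are named after their values were seen: Pdk4 read 25.2 to 140 FPKM in controls and 35.8 to 192 FPKM in CKOs, and Angptl4 0.116 to 1.02 and 0.0494 to 1.95 FPKM. For both, CKO 1, CKO 3 and CKO 4 were the highest CKOs.

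Peroxisomes carry out a parallel oxidation of very long chains. As deposited 4 of 15 tested genes were higher (26.7%) and 1 lower (6.67%), beside 18.1% and 1.76% of all genes. The median log2 fold change was 0.04 (0.18 over all genes). After scaling 2 were higher (13.3%) and 3 lower (20%), beside 6.66% and 7.41% of all genes, with a median of -0.14 (0.01 over all genes). Hsd17b4, the peroxisomal bifunctional enzyme, read 6.00 to 11.3 FPKM in controls and 10.1 to 14.9 FPKM in CKOs, a log2 fold change of 0.42 (adjusted P = 0.135, limma) and 0.23 (adjusted P = 0.403) after scaling. Decr2, the peroxisomal dienoyl-CoA reductase, read 0.322 to 0.715 FPKM in controls and 0.321 to 1.33 FPKM in CKOs, a log2 fold change of 0.73 (adjusted P = 0.152, limma) and 0.57 (adjusted P = 0.344) after scaling. The difference between peroxisomal and mitochondrial genes was not tested.

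Carnitine transport and the other mitochondrial acyl-CoA enzymes had 3 of 18 higher and 3 lower as deposited (16.7% each), with a median of 0.16. All genes stood at 18.1% and 1.76%. After scaling 1 was higher (5.56%) and 3 lower (16.7%), beside 6.66% and 7.41% of all genes, with a median of -0.02. Bdh1, the beta-hydroxybutyrate dehydrogenase of ketone body metabolism, fell, reading 0.629 to 2.16 FPKM in controls and 0.115 to 0.839 FPKM in CKOs. The groups overlapped only through CKO 1 and control 4, and the log2 fold change was -1.85 (SE 0.33, adjusted P = 0.01, limma) and -2.0 (adjusted P = 0.00651) after scaling. Oxct1, which activates ketone bodies for oxidation, read 64.5 to 75.3 FPKM in controls and 42.7 to 64.4 FPKM in CKOs, entirely below the controls by a narrow margin. Its log2 fold change was -0.35 (adjusted P = 0.107) as deposited and -0.54 (adjusted P = 0.0210) after scaling. Acss1, the mitochondrial acetate synthetase, rose by 0.67 on the log2 scale without overlap, reading 1.37 to 1.95 FPKM in controls and 2.17 to 3.96 FPKM in CKOs (adjusted P = 0.0288, limma), and by 0.49 (adjusted P = 0.155) after scaling.

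**Figure D5:**
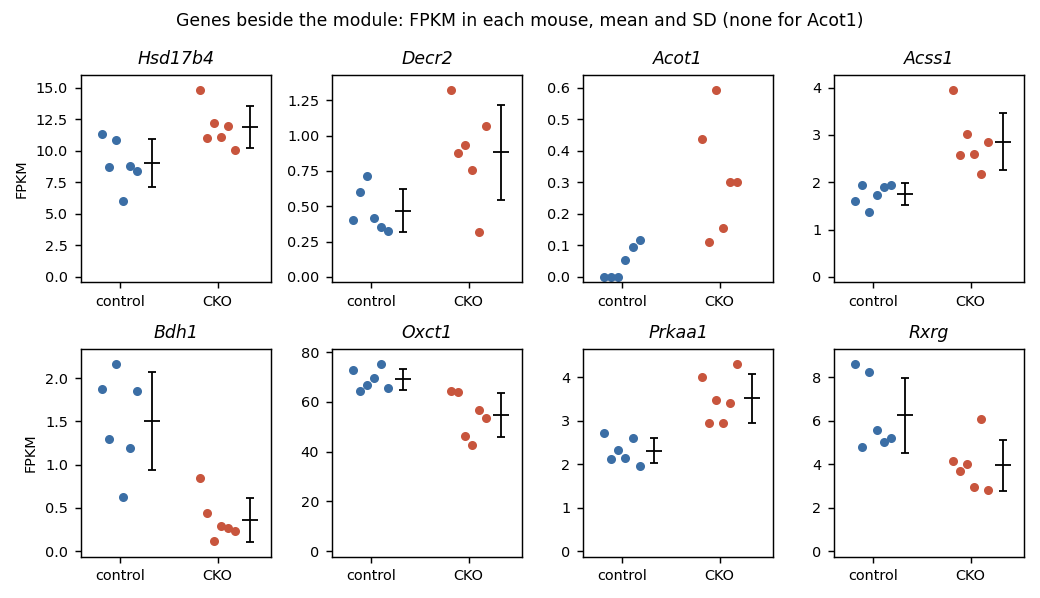
FPKM as deposited in each mouse for 8 genes outside the 38, controls blue and CKOs red, replicates 1 to 6 from left to right, with mean and SD except for Acot1, which is listed at 0 in 3 controls. Acss1 and Prkaa1 have all 6 CKOs above all 6 controls, Oxct1 has all 6 CKOs below, and Bdh1 overlaps through 1 mouse in each group.

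Other lipolysis and droplet genes had 2 of 15 higher (13.3%) and 0 lower as deposited, beside 18.1% and 1.76% of all genes, with a median of 0.17. After scaling 1 was higher (6.67%) and 2 lower (13.3%), beside 6.66% and 7.41% of all genes, with a median of -0.01. The higher genes as deposited were Lipa, the lysosomal acid lipase, at 0.64 (adjusted P = 0.101, limma) and 0.47 (adjusted P = 0.206) after scaling, and Lmf1, which matures lipoprotein lipase, at 0.45 (adjusted P = 0.15) and 0.28 (adjusted P = 0.528). Cell types that also express several members were followed by their markers. Of 6 endothelial markers 0 passed the unadjusted threshold on either scale, and their sum ran from 31.1 to 44.4 FPKM in controls and 31.3 to 51.0 FPKM in CKOs. Of 7 macrophage markers 0 passed on either scale. Of 7 fibroblast and tendon markers 2 were higher as deposited and 1 after scaling, and of 5 Schwann cell markers 3 were higher as deposited and 0 after scaling. Of 4 brown adipocyte markers 2 could be tested and 0 passed, and Ucp1 was listed at 0 in every mouse but CKO 4. Of 3 erythrocyte markers 0 passed. Of 9 slow fiber genes 7 were higher and 0 lower as deposited, and 6 higher and 1 lower (Myl3) after scaling. Of 8 fast fiber genes 3 were higher and 0 lower as deposited, where 5 had a negative log2 fold change, and 3 higher and 4 lower after scaling. The slow fiber genes higher are 77.8% of their list as deposited and 66.7% after scaling, and the fast ones 37.5% on both scales. The shares of all genes given above, 18.1% and 1.76% as deposited and 6.66% and 7.41% after scaling, are those beside each of these marker counts. The part of fiber genes in the members' differences was not tested.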

How the data were processed

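Per the study's methods, ribosomal RNA was depleted (ScriptSeq Complete Gold), adapters were trimmed, and reads were aligned with at most 2 mismatches, those mapping to several places being discarded. The submitters' processing notes name TopHat2 2.0.10, Cufflinks 2.1.1 and the build mm9. The annotation is not given in the sources used here. The deposited values are FPKM, computed by the authors for each gene symbol. Each file held 23950 rows, and 27 rows with a date for a symbol were removed.

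log2(FPKM + 0.1) was compared with limma 3.58.1 in R 4.3.3 (intensity trend, no block) where a gene reached 0.1 FPKM in 6 or more of the 12 samples, with Benjamini-Hochberg adjustment over 12695 genes. Median-ratio scaling divided each sample by its median ratio to the geometric mean over 11922 genes. Log2 fold changes with the added 0.1 understate changes of low genes. Ratios were tested by exact permutation. The code was tested on simulated data. Alternatives were an added value of 1, a filter at 1 FPKM, no filter, quantile normalization, sample weights, no trend, the replicate number as a block, and each mouse left out. The last pair, applied after scaling, was chosen after seeing the data.

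The members and all gene lists were chosen with earlier results of these data known. All 38 members were accounted for. Full statistics were given for those past the unadjusted threshold on either scale and for the 3 most abundant, and up to 3 genes were named from each other list by smallest P. A gene that meets this rule is not reported here, and none was put in its place. Positions are from GENCODE and promoters from RefSeq on GRCm38, since the files hold none. Counts and depth in reads were not analysed here, so no counting interval is given. Same-numbered mice did not deviate together on average (mean correlation 0.040), so the numbers were not taken as pairs. Members differed in this. Blocking narrowed the SE of most of the 38, such as Fabp3 from 0.228 to 0.107, Plin5 from 0.254 to 0.146 and Cd36 from 0.153 to 0.0955. It widened that of a minority, such as Pnpla2, from 0.174 to 0.190.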

Additional observations from a re-analysis of the deposited data

Results flagged for a closer look

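Plin2, the lipid droplet coat gene, stood out within the CKOs in CKO 1, where it read 5.52 FPKM against 3.41 to 4.12 FPKM in the other 5 CKOs. Control 1 came close to it, at 5.245 FPKM. The gap from CKO 1 to the next CKO was 0.660 of the range of the group, above Dixon's 95% limit for 6 samples. It was the only such value among 76 groups of 6 (38 genes in each genotype), where chance alone flags about 1 in 20. CKO 1 also had the deepest library, the highest sum of adipocyte markers without Fabp4 (7.31 FPKM) and the highest CKO level of 18 of the 38 genes. With Fabp4 its adipocyte sum was 132 FPKM, below 211 FPKM in CKO 2 and 308 FPKM in control 1. The part of these in the Plin2 level of CKO 1 was not tested.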

How the results depend on the processing

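The pseudocount of 1 and both filters changed no member's direction or call, though the filter at 1 FPKM kept 37 of the 38 members. Without the trend 1 call was lost. Members higher at the unadjusted threshold were 8 as deposited, 1 after median-ratio scaling, 2 with quantile normalization and 13 with sample weights (3 adjusted), and members lower were 0, 1, 1 and 0. Over all genes the higher counts were 2300, 845, 810 and 3704 and the lower counts 224, 941 and 837, with 318 under weights. The adjusted higher counts were 257, 97, 101 and 1400 (170 without a filter) and the lower 34, 90, 68 and 115. Median-ratio factors were 0.855 to 1.11 in controls and 1.03 to 1.15 in CKOs.

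Median-ratio scaling turned 15 log2 fold changes negative: Cd36 -0.116, Lpl -0.0294, Plin2 -0.0606, Plin5 -0.143, Acsl1 -0.0751, Acsl4 -0.0849, Cpt2 -0.102, Acacb -0.0946, Acadl -0.0867, Acadm -0.0642, Acadvl -0.133, Eci1 -0.137, Etfa -0.0559, Etfdh -0.108 and Ucp3 -0.153. Quantile normalization turned 9: Slc27a4 -0.00158, Plin2 -0.0509, Plin5 -0.155, Acsl4 -0.048, Cpt2 -0.0741, Acacb -0.0479, Eci1 -0.0764, Etfdh -0.00975 and Ucp3 -0.094. None of the 24 reached the threshold. The pseudocount of 1 turned Cpt1b to Cpt1a to 0.0411 (exact permutation P = 0.732).

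With 1 mouse left out, members higher ran from 5 to 14 (0 to 5 after scaling), members lower from 0 to 1 (0 to 2), adjusted higher from 0 to 1 (without control 1) and adjusted lower after scaling from 0 to 1 (without control 2). Adjusted counts over all genes ran from 84 to 1067 higher and 18 to 69 lower, both highest without control 1 and lowest without CKO 1. Ranges that crossed 0 were Cd36 -0.00010 to 0.156, Pnpla2 -0.128 to 0.0587, Plin5 -0.144 to 0.205, Acsl6 -0.116 to 0.00675, Hadh -0.0984 to 0.012, Eci1 -0.0383 to 0.175 and Ucp3 -0.149 to 0.398, and the ratios Cpt1b to Cpt1a -0.159 to 0.0559, Ucp3 to Ucp2 -0.546 to 0.0951 and Plin5 to Plin2 -0.179 to 0.0337. Acacb to Mlycd ran from -0.36 to -0.16.

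Adding the replicate number as a block gave 11 members higher, with Fabp3, Mgll and Etfb joining the 8, beside 2442 of all genes (19.2%). The numbers do not mark shared animals, and 2 of 6 pairs correlated best with their own number. The block changed no other member's call. Depth in reads is unknown, so low members such as Slc27a4 and Cpt1a carry counting error that could not be separated from the spread between mice.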

Other observations

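Fatty acid and triglyceride synthesis, the opposite branch of lipid metabolism, counted 18 genes. As deposited 6 were higher (33.3%) and 2 lower (11.1%) in CKOs at an unadjusted P, beside 18.1% and 1.76% of all genes. After median-ratio scaling 3 were higher and 3 lower (16.7% each), beside 6.66% and 7.41% of all genes. The median log2 fold changes were 0.24 and 0.05 (0.18 and 0.01 over all genes). Me1, the malic enzyme that supplies NADPH for synthesis, fell. It read 7.70 to 13.0 FPKM in controls and 3.73 to 8.31 FPKM in CKOs, a log2 fold change of -0.80 (adjusted P = 0.0455, limma) as deposited and -0.99 (adjusted P = 0.0286) after scaling. Scd1, the desaturase that makes monounsaturated fatty acids, read 1.91 to 4.57 FPKM in controls and 4.16 to 8.28 FPKM in CKOs, with CKO 6 the highest, at a log2 fold change of 0.72 (adjusted P = 0.107) and 0.54 (adjusted P = 0.239) after scaling. Agpat2, an acyltransferase of triglyceride assembly, read 0.217 to 0.786 FPKM in controls and 0.652 to 1.76 FPKM in CKOs, at 0.83 (adjusted P = 0.119) and 0.67 (adjusted P = 0.281) after scaling. CKO 6 was thus the highest CKO for Scd1 and the lowest for 26 of the 38 genes of uptake, lipolysis and oxidation.

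Mitochondrial content genes (citrate cycle, respiratory chain and membrane proteins) had 1 of 15 higher and 0 lower as deposited, with a median log2 fold change of -0.07. The 1 higher is 6.67%, beside 18.1% of all genes. After scaling 1 was higher and 6 lower, with a median of -0.25. These 6 are 40% of the list, beside 7.41% of all genes. Of the 15, 14 were then negative, beside 6186 of all 12695 genes, and Tomm20 was the only positive one. The gene that was higher on both scales was Tomm20, a receptor for protein import, at 1.22 to 1.57 FPKM in controls and 1.60 to 2.45 FPKM in CKOs (log2 fold change 0.44, adjusted P = 0.0879, limma, and 0.26, adjusted P = 0.352, after scaling). The difference between this list and the 38 genes, whose median was 0.17 as deposited and -0.01 after scaling, was not tested.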
